A study of Mus musculus with 18 samples.

Results

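Actin nucleation promoters and formins are proteins that start new actin filaments in cells, and 10 mouse genes for them are described here: Was, Wasl, Wasf2, Wipf1, Hcls1, Cttn, Diaph1, Fmnl1, Fmnl2 and Daam1. The 10 genes were picked by name: an entry of the deposited expression table belongs to them when its gene symbol is one of these names, and each name matched 1 of the 62197 entries. The study asked whether dendritic cells (DCs), the cells that carry antigen to lymph nodes, respond to being squeezed, and whether the response needs cytosolic phospholipase A2 (cPLA2, encoded by Pla2g4a), an enzyme that releases fatty acids from membranes. RNA was sequenced from mouse bone marrow-derived DCs kept for 10 days in medium with granulocyte-macrophage colony-stimulating factor, in 6 conditions of 3 libraries each.

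Nonconfined cPLA2 WT and nonconfined cPLA2 KO cells received no treatment and were taken at the end of the culture. Confined cPLA2 WT and confined cPLA2 KO cells were immature cells held under a roof 3 µm high, with 4 h given as their time. LPS cells, in libraries labelled cPLA2 WT and cPLA2 KO, were given lipopolysaccharide (LPS), a bacterial product that matures DCs, at 100 ng/ml for 30 min per the labels (the study's methods name a slightly shorter time), were washed and were taken the next day without confinement. The mice were adults of either sex backcrossed to C57BL/6, and the knockout joined a floxed Pla2g4a gene with a Cre recombinase driven by the Itgax promoter, so that only cells that had switched Itgax on could lose the gene. The semi-adherent cells were used, a step meant to separate DCs from granulocytes and macrophages that arise in such cultures, and most cells recovered are described as CD11c positive. Sorting of the cells by type is not given in the sources used here, so every value is an average over all cells recovered. LPS and confined cells differ in time as well as in stimulus, and all 3 kinds of group share the culture.

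New actin filaments arise in 2 ways. The ARP2/3 complex grows branches from the side of an existing filament once a nucleation promoting factor activates it. WASP (Was) is the factor of blood cells and N-WASP (Wasl) its broadly expressed relative. WIP (Wipf1) is the chaperone that binds both, and WAVE2 (Wasf2) the factor that works in lamellipodia downstream of RAC. Cortactin (Cttn) and its blood-cell relative HS1 (Hcls1) bind ARP2/3 and stabilize its branches. Formins, here mDia1 (Diaph1), FMNL1, FMNL2 and DAAM1, instead start unbranched filaments and stay on the growing end. DCs use both kinds of filament to extend protrusions and to move through narrow spaces.

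Pla2g4a, the targeted gene, was read first as a check of the labels. It measured 697, 686 and 770.4 normalized counts (reads of a gene divided by a size factor of the library) in the nonconfined cPLA2 WT libraries and 548, 542 and 533 in the nonconfined cPLA2 KO libraries. After confinement it measured 1369, 1430.3 and 1321 in cPLA2 WT and 923, 871 and 919.5 in cPLA2 KO. Each KO library lay below every WT library of the same treatment, by 0.41 on the log2 scale without and 0.60 with confinement, although much of the transcript was still counted. Reads over the whole gene do not show whether the floxed exons were gone. The LPS libraries went against their labels: those labelled cPLA2 WT measured 1005, 969 and 967, and each of those labelled cPLA2 KO lay above them, at 1065, 1032 and 1028.

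Ddx3y, a gene of the Y chromosome chosen after its values were seen, did not follow the LPS labels either. It measured 3.05, 0 and 1.97 normalized counts in nonconfined cPLA2 WT and 0, 1.72 and 2.37 in confined cPLA2 WT, against 949, 981 and 874 in nonconfined cPLA2 KO and 1036, 920.2 and 948 in confined cPLA2 KO. In these groups genotype and RNA of the Y chromosome cannot be told apart. The LPS libraries labelled cPLA2 WT measured 1271, 0 and 662 and those labelled cPLA2 KO 2.12, 1476 and 783, so that both labels held libraries with and without it. The genotype of the LPS libraries is therefore given only as a label, and their 6 libraries are pooled in comparisons with other groups. Reads on genes numbered 33027230 to 61300021 per library, with a median of 40950397. The sources call the replicates biological without naming separate mice, so p-values measure the spread between these libraries only.

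All 10 genes were measured in every library, with at least 10 normalized counts in each of the 18, so all 10 passed the filter for testing (10 or more in at least 3 libraries), as did 17875 genes in all. Per kilobase of exon, the scale on which levels of different genes are compared here, HS1 and the blood-cell formin FMNL1 led: the mean over 18 libraries was 4566 normalized counts per kb for Hcls1 and 4276 for Fmnl1. Diaph1 (2155), Was (1436), Wasf2 (1228) and Wipf1 (655) followed on the same scale. Fmnl2 (222 per kb) and Daam1 (197 per kb) were far lower, Wasl stood at 35.9 per kb and Cttn at 9.87 per kb. The order differed between conditions: on this scale Fmnl1 exceeded Hcls1 in confined cells, Wasf2 exceeded Was in confined cPLA2 WT and LPS cells, and Daam1 exceeded Fmnl2 in confined cPLA2 WT cells. Within each of the 2 related pairs the blood-cell form thus dominated on this scale, Was over Wasl and Hcls1 over Cttn. The less abundant genes varied most between libraries: the highest normalized count was 5.87 times the lowest for Daam1, 3.79 times for Fmnl2, 3.05 times for Cttn and 2.23 times for Wasl, but 1.35 times for Fmnl1. Cttn rested on few reads, from 23 to 103 per library, whereas no other of the genes fell below 160 reads.

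Was (GSMG0061317, chromosome X, 7947705 to 7956730, minus strand, GRCm39, 12 exons in its canonical transcript) encodes the WASP protein that is lost in Wiskott-Aldrich syndrome. It measured 5125, 4537 and 4677 normalized counts in nonconfined cPLA2 WT and 4579, 4921 and 5108 in nonconfined cPLA2 KO, 3443, 3204 and 3450.4 in confined cPLA2 WT and 4006, 3860.1 and 3706 in confined cPLA2 KO. The LPS libraries measured 3025, 3143 and 3124 under the label cPLA2 WT and 3043, 2977 and 3052 under the label cPLA2 KO. The order was thus nonconfined, confined cPLA2 KO, confined cPLA2 WT and LPS, with no overlap between these 4 levels and overlap between the genotypes of the nonconfined cells and between the LPS labels.

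Wasl (GSMG0045852, chromosome 6, 24613808 to 24664994, minus strand, 11 exons), the N-WASP gene, ran the opposite way. Its normalized counts were 165, 136 and 159 in nonconfined cPLA2 WT, 174, 181 and 160.1 in nonconfined cPLA2 KO, 253, 238 and 252 in confined cPLA2 WT, 215, 189 and 216 in confined cPLA2 KO, and 297, 304 and 298 and 295, 262 and 253 in LPS libraries labelled cPLA2 WT and cPLA2 KO. The nonconfined libraries of both genotypes overlapped at the bottom, confined cPLA2 KO lay between them and confined cPLA2 WT without touching either, and confined cPLA2 WT overlapped the LPS libraries labelled cPLA2 KO but not those labelled cPLA2 WT. Wipf1 (GSMG0032131, chromosome 2, 73259954 to 73359831, minus strand, 8 exons), which encodes the WIP chaperone that protects WASP from breakdown, varied less. It measured 4865, 4243 and 4182 in nonconfined cPLA2 WT and 4061, 4625 and 4255 in nonconfined cPLA2 KO, 3611, 3346 and 3494 in confined cPLA2 WT and 4725, 4245 and 4044 in confined cPLA2 KO. Only the confined cPLA2 WT libraries dropped clear of their controls, and the LPS libraries, from 3389 to 4159, overlapped every other group except nonconfined cPLA2 WT. Of the exon bases of Wipf1, 10.2% are also covered by genes on the opposite strand, and although the kits kept strand, the strand setting of the counting is not given in the sources used here.

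Wasf2 (GSMG0037339, chromosome 4, 132857874 to 132927062, plus strand, 9 exons) encodes WAVE2, the factor through which RAC drives sheet-like protrusions. It measured 10354, 9682 and 9904 normalized counts in nonconfined cPLA2 WT and 9502, 10169 and 9372 in nonconfined cPLA2 KO. After confinement it measured 13045, 12456 and 12594 in cPLA2 WT and 10302, 9746 and 9953 in cPLA2 KO, and the 6 LPS libraries held 13624 to 14350.4. The confined cPLA2 WT libraries stood between the nonconfined and LPS libraries without overlap, while confined cPLA2 KO libraries overlapped the nonconfined ones of both genotypes.

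Hcls1 (GSMG0020851, chromosome 16, 36755345 to 36783578, plus strand, 14 exons), the gene of HS1, stood apart in the LPS libraries, at 20759.6, 19299.5 and 19412 normalized counts under the label cPLA2 WT and 18556, 20505 and 19436 under the label cPLA2 KO. It measured 12836, 12025 and 11952 in nonconfined cPLA2 WT, 12276, 12117 and 12717 in nonconfined cPLA2 KO, 11854, 11338 and 11294 in confined cPLA2 WT and 11626, 10870.2 and 11312 in confined cPLA2 KO. Every confined library lay below every nonconfined one, by a small margin, and the genotypes overlapped under both treatments. Cttn (GSMG0052854, chromosome 7, 143989461 to 144024672, minus strand, 18 exons), the cortactin gene, was counted least, at 53.3 to 69.9 in nonconfined cPLA2 WT, 41.0 to 50.1 in nonconfined cPLA2 KO, 61.8, 39.5 and 27.2 in confined cPLA2 WT, 46.9 to 57.4 in confined cPLA2 KO and 51.5 to 83.2 with LPS. No 2 neighbours in the order of its group means were free of overlap.

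Daam1 (GSMG0010934, chromosome 12, 71877842 to 72039150, plus strand, 25 exons) encodes a formin that binds Dishevelled, and it spread more than any of the other 9 genes. It measured 658, 579.8 and 621 normalized counts in nonconfined cPLA2 WT and 542, 625 and 520.2 in nonconfined cPLA2 KO, 2114, 2332 and 2222 in confined cPLA2 WT and 1204, 1164 and 1199 in confined cPLA2 KO. The LPS libraries measured 3028, 2783 and 3053 under the label cPLA2 WT and 2797, 2985 and 2648 under the label cPLA2 KO. The levels thus rose in steps without overlap from nonconfined cells through confined cPLA2 KO and confined cPLA2 WT to LPS, and overlapped only between the genotypes of the nonconfined cells and between the LPS labels.

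Fmnl2 (GSMG0029338, chromosome 2, 52747880 to 53024214, plus strand, 26 exons), a CDC42-bound formin of lamellipodia and filopodia, followed the same 4 steps. Its normalized counts were 640.1, 577 and 649.6 in nonconfined cPLA2 WT, 562, 666 and 608 in nonconfined cPLA2 KO, 1453, 1433 and 1378 in confined cPLA2 WT and 1112, 1044 and 1094 in confined cPLA2 KO, against 2126, 1828 and 2004 and 1874, 1965 and 1958 with LPS under the labels cPLA2 WT and cPLA2 KO. Again no library of one step reached into the next. Fmnl1 (GSMG0008243, chromosome 11, 103061964 to 103089726, plus strand, 26 exons), the formin of blood cells, moved within a narrow band, from 19465 to 20873 in the nonconfined libraries to 22258 to 23789 in confined cPLA2 KO, 23338 to 26205 with LPS and 24788 to 25588 in confined cPLA2 WT. Confined cPLA2 WT overlapped LPS, and LPS overlapped confined cPLA2 KO, but no confined or LPS library reached down to the nonconfined ones. Diaph1 (GSMG0026466, chromosome 18, 37976654 to 38068531, minus strand, 27 exons), the gene of the formin mDia1, was the only 1 of the 10 with its highest level after confinement in both genotypes, at 14878 to 15018 in cPLA2 WT and 14757 to 15369.7 in cPLA2 KO. It held 13276 to 14242 with LPS and 11069.7 to 12873 in the nonconfined libraries, and these 3 ranges did not overlap.

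**Figure D1:**
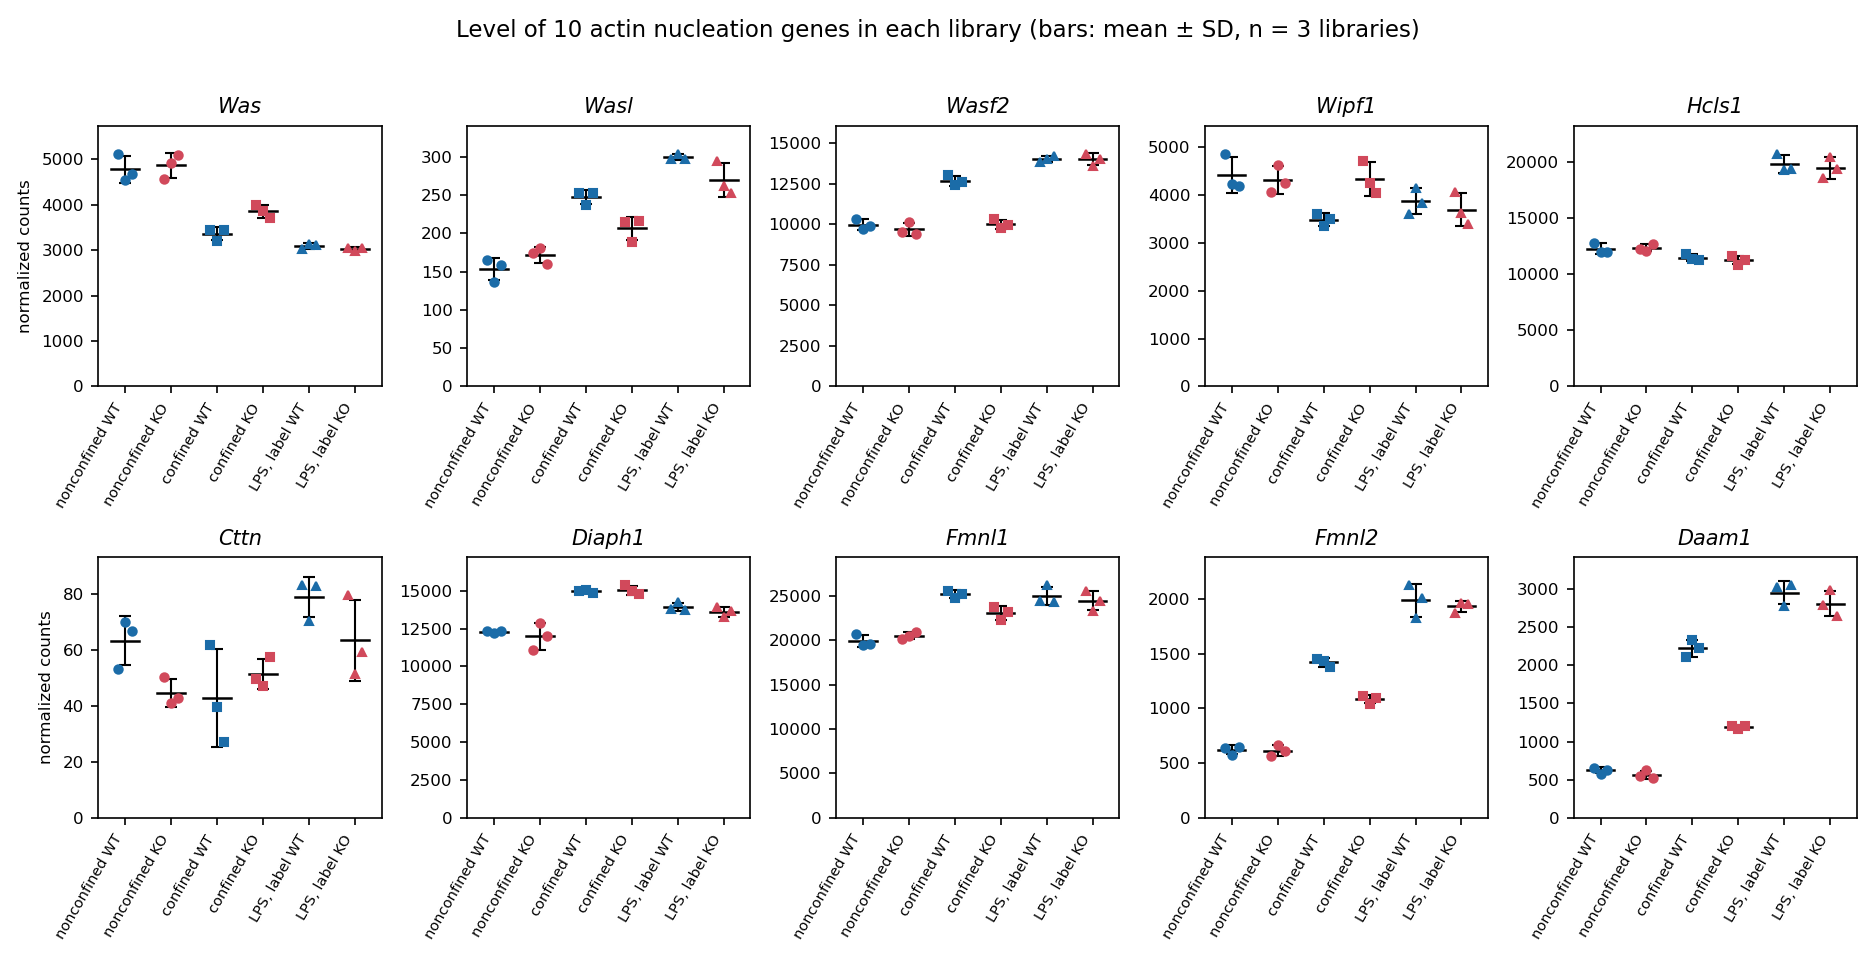
Normalized counts (vertical axis, from 0) of each of the 10 genes in the 18 libraries, grouped by condition on the horizontal axis, with each group's mean and SD (n = 3). Daam1 and Fmnl2 rise in steps from nonconfined through confined cPLA2 KO and confined cPLA2 WT to LPS, Was falls in the same order, and Cttn is the lowest of the 10 in counts.

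Confinement of cPLA2 WT cells lowered the RNA of WASP and raised that of N-WASP, WAVE2 and the formins. Daam1 rose 3.58-fold, from 619.8 ± 39.3 to 2223 ± 109 normalized counts (SD, n = 3 libraries), and Fmnl2 rose 2.28-fold, from 622 ± 39.3 to 1421 ± 39.2. All 4 formins rose, as did Wasl and Wasf2, whereas Was and its chaperone gene Wipf1 fell. Of the 10 genes, 6 rose and 3 fell at an adjusted p under 0.05 (limma with Benjamini-Hochberg adjustment over all genes tested), where 56.6% of all 17875 genes were called, 28.2% higher and 28.4% lower. The share called is thus high for any gene in this comparison, and 2 of the 10, Daam1 and Fmnl2, also passed a 2-fold change, which 19.0% of all genes did. It is higher still for abundant genes. With testing limited to the 11894 genes that reached 100 normalized counts in at least 3 libraries, 72.4% were called. All of the 10 but Cttn passed that filter. Fewer cells of a type and less RNA in each cell cannot be told apart in such bulk values.

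Among the promoting factors, Wasl rose by 0.69 ± 0.11 on the log2 scale (standard error, adjusted p = 1.08e-05), a scale of log2(normalized count + 1) that slightly understates changes of low genes. Wasf2 rose by 0.35 ± 0.04 (adjusted p = 2.98e-07), with all 3 confined libraries above all 3 controls. Was fell by 0.50 ± 0.05 on the log2 scale (adjusted p = 3.92e-08) and Wipf1 fell by 0.34 ± 0.08 (adjusted p = 5.26e-04). WASP and WIP, which work as a pair in the cell, thus went down together at the RNA level while the RNA of N-WASP went up. For Hcls1 the difference was -0.09 (95% interval -0.19 to 0.00, adjusted p = 0.0880), which did not pass, although it was -0.32 (adjusted p = 2.97e-07) with equal library totals. Cttn fell by 0.62 ± 0.25 on the log2 scale with an adjusted p of 0.0422, but its libraries overlapped the controls, and the adjusted p was 0.122 and 0.104 without nonconfined cPLA2 WT replicates 2 and 3, respectively and 0.0899 and 0.268 without confined cPLA2 WT replicates 2 and 3, respectively. Its log2 difference was -0.34 without confined cPLA2 WT replicate 3 and -0.92 without replicate 1 of that group. For Cttn the adjusted p was also 0.0689 by edgeR, 0.0714 by DESeq2 and 0.0560 without the 6 LPS libraries in the fit.

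The formins rose by 1.84 ± 0.07 for Daam1 (adjusted p = 2.39e-15) and by 1.19 ± 0.07 for Fmnl2 (adjusted p = 3.35e-12) on the log2 scale. Only 5.96% of all tested genes had a larger log2 difference than Daam1. Fmnl1 rose by 0.34 ± 0.04 (adjusted p = 7.23e-07) and Diaph1 by 0.28 ± 0.04 (adjusted p = 1.17e-05), and in all 4 formins each confined library exceeded each control. The median log2 difference was 0.31 over the 10 genes and -0.01 over all genes. When the libraries were instead scaled to equal totals, the median of all genes moved from -0.01 to -0.23 and the share of calls that were higher from 49.8% to 32.7%. With equal totals Diaph1, at 0.06, was no longer called (adjusted p = 0.311), and the others that moved by over 1.5 times were Fmnl1 at 0.12, Wasf2 at 0.12 and Wipf1 at -0.57, besides Hcls1.

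Genes around these 10 moved both ways in the same condition, as did all genes (28.2% higher and 28.4% lower). Those named have the largest and smallest log2 differences among genes of a list that average at least 100 normalized counts. Among other nucleation promoters and the subunits of their complexes, 6 of 16 rose and 5 fell, with a median of 0.01. Cyfip1, a subunit of the WAVE complex that binds RAC, had the largest log2 difference (1.17 ± 0.04, adjusted p = 8.25e-17) and Abi3, another subunit of that complex, the smallest (-0.52 ± 0.07, adjusted p = 3.03e-06). Cyfip1 measured 9009.7, 8987 and 8900.2 normalized counts without and 20079, 19959 and 20617 with confinement. Of the other formins, 3 of 7 rose and 1 fell, with a median of 0.26, and the extremes among those averaging at least 100 were Inf2 (0.41 ± 0.06, adjusted p = 5.01e-06) and Fhod1 (-0.37 ± 0.06, adjusted p = 1.85e-05). Of the ARP2/3 subunits, which the promoting factors act on, 4 of 9 rose and 2 fell, with a median of 0.04, from Arpc3 (0.40 ± 0.04, adjusted p = 1.37e-08) to Arpc5l (-0.46 ± 0.07, adjusted p = 6.30e-06).

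Of the genes that restrain or take apart ARP2/3 branches, 1 of 7 rose and 4 fell in confined cPLA2 WT cells, with a median of -0.20, where 28.4% of all genes fell. Arpin, whose product inhibits ARP2/3, measured 136, 143 and 140.5 normalized counts in nonconfined and 70.5, 87.5 and 48.6 in confined cPLA2 WT libraries, a log2 difference of -1.05 ± 0.21, adjusted p = 1.72e-04, and Gmfb, for a debranching factor, was at the other end (0.22 ± 0.05, adjusted p = 3.59e-04), though at 0.00 with equal library totals. Among upstream GTPases, exchange factors and adaptors, 10 of 18 rose and 3 fell, with a median of 0.22. Their extremes were Fnbp1l (1.05 ± 0.08, adjusted p = 2.40e-10), which encodes a membrane-bending activator of N-WASP, and Dock8 (-1.08 ± 0.06, adjusted p = 4.63e-12), an exchange factor for CDC42 in DCs.

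In cPLA2 KO cells confinement raised the same 4 formins, led again by Daam1 and Fmnl2, while Wasf2 and Wipf1, called in cPLA2 WT, did not pass. Daam1 went from 562 ± 55.1 to 1189 ± 21.7 normalized counts (SD, n = 3 libraries), 2.12-fold, and Fmnl2 from 612 ± 52.0 to 1084 ± 35.5, 1.77-fold. Of the 10 genes, 5 rose and 2 fell, where 46.3% of all genes were called, 22.8% higher and 23.4% lower, and 1 of the 10, Daam1, passed a 2-fold change beside 12% of all genes. Among genes that reached 100 normalized counts in at least 3 libraries, 60.6% were called. The median log2 difference was 0.18 over the 10 genes and 0.01 over all genes.

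By limma, Daam1 rose by 1.08 ± 0.07 on the log2 scale (adjusted p = 5.17e-11), Fmnl2 by 0.83 ± 0.07 (adjusted p = 3.11e-09), Diaph1 by 0.33 ± 0.04 (adjusted p = 2.95e-06) and Fmnl1 by 0.17 ± 0.04 (adjusted p = 0.00271). Each confined library exceeded each nonconfined library of that genotype for all 4. Was fell by 0.34 ± 0.05 (adjusted p = 2.04e-05), again in every library, and is the more abundant of the 2 WASP-family RNAs in these cells per kilobase. Hcls1 fell by 0.13 ± 0.05 (adjusted p = 0.0204), a call that ended when either of 2 libraries was left out, with adjusted p of 0.0879 without nonconfined cPLA2 KO replicate 3 and 0.0931 without confined cPLA2 KO replicate 2. Wasl rose by 0.26 ± 0.11, with an adjusted p of 0.0489 that became 0.0771 and 0.162 without nonconfined cPLA2 KO replicates 1 and 3, respectively and 0.128 and 0.140 without confined cPLA2 KO replicates 1 and 3, respectively, and was 0.0662 by DESeq2 and 0.0726 without the 6 LPS libraries in the fit. For the remaining genes the differences were 0.05 for Wasf2 (95% interval -0.04 to 0.13, adjusted p = 0.374), 0.01 for Wipf1 (95% interval -0.15 to 0.16, adjusted p = 0.949) and 0.20 for Cttn (95% interval -0.33 to 0.73, adjusted p = 0.554). Around them, 6 of 16 other promoters and complex subunits rose and 5 fell, and 3 of 7 other formins rose and 1 fell. In the same comparison 4 of 9 ARP2/3 subunits fell, 2 of 7 inhibitors and debranching factors rose and 2 fell, and 5 of 18 upstream genes rose and 4 fell.

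Whether the change under confinement itself differed by genotype was tested as an interaction, the change in cPLA2 KO minus the change in cPLA2 WT. Daam1 and Fmnl2 rose less in cPLA2 KO than in cPLA2 WT cells. Wasf2 rose and Wipf1 fell in cPLA2 WT, and neither was called in cPLA2 KO. Of the 10 genes, 5 had a negative and 1 a positive interaction, where 25.8% of all genes were called, 15.6% with a negative and 10.2% with a positive value, and none of the 10 passed a 2-fold difference, against 7.67% of all genes. Among genes that reached 100 normalized counts in at least 3 libraries, as all of the 10 but Cttn did, 37.9% were called. The median interaction was -0.11 over the 10 genes and 0.05 over all genes. The directions depend on scaling: with equal library totals 6 of the 10 were called as well, but 5 with a positive value (Wipf1, Was, Diaph1, Hcls1 and Cttn) and 1, Daam1, with a negative one. Without any single library of the 12 compared, 4 or 5 of the 10 were called.

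The interaction on the log2 scale was -0.76 ± 0.10 for Daam1 (limma, adjusted p = 4.16e-06), -0.30 ± 0.06 for Wasf2 (adjusted p = 5.09e-04) and -0.36 ± 0.10 for Fmnl2 (adjusted p = 0.00813). These 3 were called whichever of the 12 nonconfined and confined libraries was left out. They include a formin of each of 2 subfamilies and the WAVE2 factor. With equal library totals, however, the median interaction of all genes moved from 0.05 to 0.24 and the share of calls that were positive from 39.5% to 70.7%. Wasf2 (-0.11, adjusted p = 0.146) and Fmnl2 (-0.18, adjusted p = 0.154) were no longer called. Relative to the median of all genes, which takes out such a shift by construction and is no separate support, Wasf2 stood at -0.35 and Fmnl2 at -0.41.

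The calls of the other 3 genes were lost when single libraries were left out. For Wipf1, the WIP gene, the interaction was 0.35 ± 0.11 (limma, adjusted p = 0.0183), with adjusted p of 0.0525 without nonconfined cPLA2 KO replicate 1, 0.0641 without nonconfined cPLA2 WT replicate 1 and 0.0606 without confined cPLA2 KO replicate 1, and 0.54 with equal library totals. For Wasl, the N-WASP gene, it was -0.43 ± 0.15 (adjusted p = 0.0430), with adjusted p of 0.0728 and 0.0828 without nonconfined cPLA2 KO replicates 1 and 2, respectively, 0.122 and 0.0510 without nonconfined cPLA2 WT replicates 2 and 3, respectively, 0.105 without confined cPLA2 KO replicate 2 and 0.0811 and 0.0795 without confined cPLA2 WT replicates 1 and 3, respectively, and of 0.0636 without the 6 LPS libraries in the fit. With equal library totals Wasl stood at -0.24 (adjusted p = 0.224). For Fmnl1 it was -0.17 ± 0.06 (adjusted p = 0.0452), turned to 0.02 with equal library totals, and had adjusted p of 0.0581 and 0.103 without nonconfined cPLA2 KO replicates 2 and 3, respectively, 0.108 and 0.1004 without nonconfined cPLA2 WT replicates 2 and 3, respectively, 0.109 and 0.0718 without confined cPLA2 KO replicates 2 and 3, respectively and 0.0918, 0.0531 and 0.0799 without confined cPLA2 WT replicates 1, 2 and 3, respectively. Cttn, whose interaction of 0.82 (95% interval 0.07 to 1.57, adjusted p = 0.102) was not called, was called at an adjusted p of 0.0181 without confined cPLA2 WT replicate 1, and with equal library totals (1.01, adjusted p = 0.0314). The interactions of Was (0.17, 95% interval 0.02 to 0.32, adjusted p = 0.102), Diaph1 (0.05, -0.08 to 0.18, adjusted p = 0.655) and Hcls1 (-0.04, -0.18 to 0.09, adjusted p = 0.705) did not pass, although with equal library totals Was (0.36, adjusted p = 7.47e-04), Diaph1 (0.23, 0.0105) and Hcls1 (0.15, 0.0342) did. For mDia1 RNA the response in the 2 genotypes thus could not be told apart at the deposited scaling.

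The confined cells of the 2 genotypes were also compared directly, with the 6 confined libraries that enter the interaction, so agreement between these comparisons is partly built in. Confined cPLA2 KO cells held less Daam1 than confined cPLA2 WT cells (1189 ± 21.7 against 2223 ± 109 normalized counts, SD, n = 3 libraries), less Fmnl2 and less Wasf2, and more Was and Wipf1. Of the 10 genes, 2 were higher and 4 lower in cPLA2 KO (4 and 3 with equal library totals), where 39.4% of all genes were called, 18.8% higher and 20.6% lower, and 10.1% of all genes but none of the 10 also passed a 2-fold change. Among genes that reached 100 normalized counts in at least 3 libraries, 53.8% were called. The median log2 difference was -0.08 over the 10 and 0.04 over all genes. On the log2 scale Daam1 differed by -0.90 ± 0.07 (limma, adjusted p = 8.71e-10), Fmnl2 by -0.39 ± 0.07 (adjusted p = 1.08e-04) and Wasf2 by -0.34 ± 0.04 (adjusted p = 7.31e-07), with no overlap between genotypes in any of the 3. Wipf1 differed by 0.31 ± 0.08 (adjusted p = 0.00212) and Was by 0.20 ± 0.05 (adjusted p = 0.00482), and again each library of one genotype lay beyond each of the other. WASP and its chaperone were thus both more abundant as RNA in the confined knockout. Fmnl1 differed by -0.13 ± 0.04 (adjusted p = 0.0223), or by 0.03 with equal library totals, and its adjusted p was 0.1001 without confined cPLA2 KO replicate 2 and 0.0717 and 0.0577 without confined cPLA2 WT replicates 1 and 3, respectively. That scaling moved the median of all genes from 0.04 to 0.19 and the share of calls that were higher from 47.7% to 69.7%, with Fmnl2 at -0.24, Wasf2 at -0.19, Was at 0.35 and Wipf1 at 0.47. Wasl (-0.26, adjusted p = 0.0577), Hcls1 (-0.03, 0.666), Cttn (0.33, 0.339) and Diaph1 (0.01, 0.930) did not pass, although Diaph1 (0.16, adjusted p = 0.00900) and Hcls1 (0.13, 0.00875) did with equal library totals, as did Wasl (-0.29, 0.0353) with scaling by the trimmed mean of M values (TMM). The value of Cttn was 0.05 without confined cPLA2 WT replicate 3 and 0.63 without replicate 1 of that group.

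Around these genes, named again among those averaging at least 100 normalized counts, Cyfip1 of the WAVE complex had the most negative interaction of its list, where 25.8% of all genes were called. Of the other promoters and complex subunits, 7 of 16 had a negative and 2 a positive interaction, with a median of -0.08, from Cyfip1 (-1.05 ± 0.05, adjusted p = 7.27e-13) to Washc2, for a subunit of the WASH complex of endosomes (0.40 ± 0.07, adjusted p = 1.35e-04). The other positive call was Abi3 (0.29). Its call was lost in 9 of 12 fits without a single library, and with TMM scaling (0.26, limma, adjusted p = 0.0763). Cyfip1 measured 8844, 9455 and 9111 normalized counts in nonconfined and 10126, 9625 and 10155 in confined cPLA2 KO libraries, against 20218 on average in confined cPLA2 WT. Of the upstream genes, 8 of 18 were negative and 1 positive, with a median of -0.15. Dock2, an exchange factor for RAC, had the largest value of that list (0.35 ± 0.14, adjusted p = 0.0866) and was called at an adjusted p of 0.00226 without nonconfined cPLA2 KO replicate 2, and with equal library totals (0.53, adjusted p = 0.00864). Of the ARP2/3 subunits, 3 of 9 were negative (median -0.07), from Arpc3 (-0.32 ± 0.06, adjusted p = 1.37e-04) to Arpc1b (0.04 ± 0.07, adjusted p = 0.734). Arpc1b (0.23, adjusted p = 0.00376), the debranching factor gene Gmfb (0.25, adjusted p = 0.00317) and the formin gene Fhod1 (0.27, adjusted p = 0.00925) were called with positive interactions under equal library totals. Of the inhibitors and debranching factors, 1 of 7 was positive (median -0.01), from Coro1c (0.45 ± 0.07, adjusted p = 1.67e-05), for a coronin, to Coro1b (-0.10 ± 0.06, adjusted p = 0.291). Of the other formins, 1 of 7 was positive (median 0.01), from Fmnl3 (0.32 ± 0.08, adjusted p = 0.00515), the nearest relative of Fmnl2, to Diaph2 (-0.03 ± 0.11, adjusted p = 0.888), so that Fmnl3 and Fmnl2 had interactions of opposite sign.

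**Figure D2:**
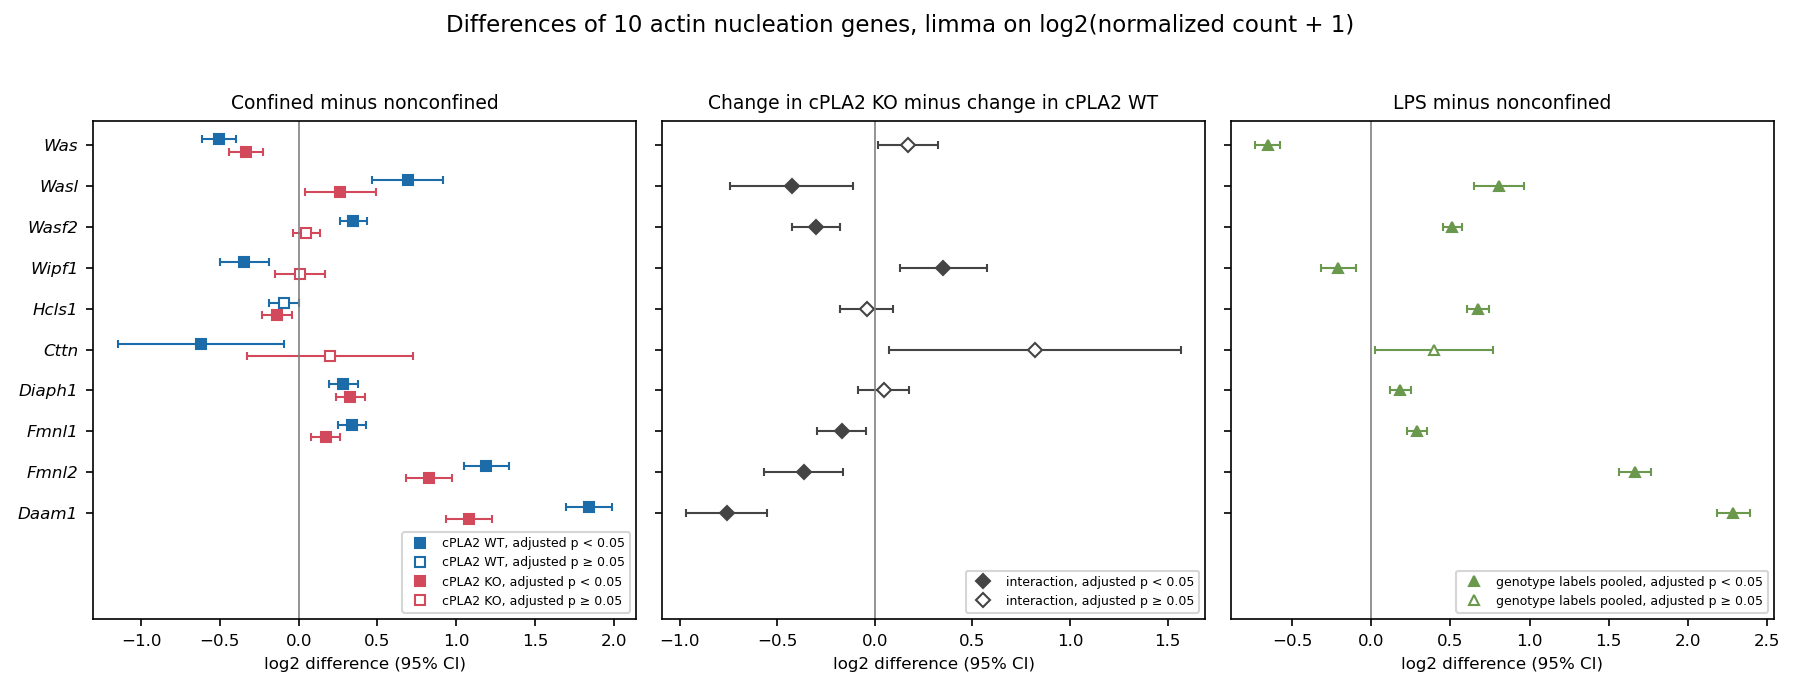
Log2 differences of the 10 genes with 95% confidence intervals (horizontal axis) for confinement in each genotype, for the interaction of confinement with genotype and for LPS against nonconfined cells, from limma on all 18 libraries, with filled symbols where the adjusted p was under 0.05. Daam1 and Fmnl2 have the largest values in the first and last panels, and Daam1 the most negative interaction, -0.76.

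None of the 10 was called between nonconfined cPLA2 KO and cPLA2 WT cells by limma, edgeR or DESeq2, and none had an unadjusted p under 0.05, where 8.88% of all genes were called by limma (4.78% higher, 4.11% lower, 1.15% past a 2-fold change) and 22.4% had an unadjusted p under 0.05. The log2 differences ran from -0.49 for Cttn (95% interval -1.02 to 0.04, adjusted p = 0.263) to 0.16 for Wasl (95% interval -0.06 to 0.39, adjusted p = 0.405), with a median of -0.03 beside 0.00 over all genes. Daam1, the gene with the most negative interaction, measured 619.8 ± 39.3 and 562 ± 55.1 normalized counts in these groups, a log2 difference of -0.14 (adjusted p = 0.237), and was called at an adjusted p of 0.0410 without nonconfined cPLA2 KO replicate 2. Cttn was the only 1 of the 10 whose nonconfined libraries did not overlap between genotypes, with every cPLA2 KO library below every cPLA2 WT library, at 64 reads or fewer in each. Around them, 1 of 16 other promoters and complex subunits was higher, and 1 of 7 other formins was higher and 1 lower.

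Genes that mark other cells of such cultures moved between the same groups. Of 8 neutrophil and progenitor markers, 8 fell with confinement of cPLA2 WT cells, 2 fell in cPLA2 KO, and all 8 had a positive interaction. Their summed normalized counts were 195962, 200872 and 199515 in nonconfined cPLA2 WT, 283949, 250606 and 273265 in nonconfined cPLA2 KO, 131931, 126470.4 and 123479 in confined cPLA2 WT and 272479, 291069 and 272689 in confined cPLA2 KO, most of it from S100a9. Of 3 eosinophil markers, 3 fell with confinement in each genotype and 3 were higher in cPLA2 KO than in cPLA2 WT with and without confinement. Their sums were 26755, 26550.2 and 26377 in nonconfined cPLA2 WT, 66677, 62241 and 64278 in nonconfined cPLA2 KO, 5842, 5586 and 5472 in confined cPLA2 WT and 15222, 14882 and 15729 in confined cPLA2 KO, led by Prg2. Of 5 mast cell and basophil markers, 4 fell and 1 rose in each genotype, led by Cpa3. Their sums were 6724, 7014 and 6861 in nonconfined cPLA2 WT, 10295, 10027 and 9837 in nonconfined cPLA2 KO, 3518, 3397 and 3464 in confined cPLA2 WT and 5477, 5348 and 5527 in confined cPLA2 KO. The part of these cells in the differences of the 10 genes was not tested.

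Of 5 macrophage markers, 1 rose and 2 fell in confined cPLA2 WT, and 1 rose and 3 fell in confined cPLA2 KO. The 1 that rose was Cd14, which made up most of their sum of 146749, 139516 and 139316 normalized counts in confined cPLA2 WT and 25888, 24551 and 25497 in confined cPLA2 KO, against 14008, 14014 and 14237 in nonconfined cPLA2 WT and 14406, 15369 and 15221 in nonconfined cPLA2 KO, where Adgre1 led. Of 7 DC markers, 2 rose and 5 fell in confined cPLA2 WT, and 6 fell in confined cPLA2 KO, with Cd74 the most abundant in each group. Their sums were 365439.7, 340353 and 346300.3 in nonconfined cPLA2 WT, 424925, 398470.3 and 413821 in nonconfined cPLA2 KO, 338164, 316380.5 and 326276 in confined cPLA2 WT and 295689.9, 281446 and 294465 in confined cPLA2 KO. Ccr7, the chemokine receptor gene that the study follows and 1 of the 2 DC markers that rose in cPLA2 WT, measured 16166, 15734 and 15753 normalized counts in nonconfined and 33397, 32199 and 33237 in confined cPLA2 WT libraries, 17366, 15815 and 16173 in nonconfined and 8907, 8891 and 8957 in confined cPLA2 KO libraries. Unlike Ccr7, which fell in confined cPLA2 KO, Daam1 and Fmnl2 still rose there. Markers of T cells, B cells and fibroblasts, 3 genes each, summed to between 9.66 and 201 in any library, and no gene of the 8 lists was at 0 in all libraries of a group. The part of all these cells in the results was not tested.

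After LPS, read the next day, Daam1 and Fmnl2 stood at their highest levels of the 6 conditions. Daam1 averaged 2882 ± 163 normalized counts (SD, n = 6 libraries) after LPS and 591 ± 53.1 in the 6 nonconfined libraries, a rise of 4.88-fold, and Fmnl2 rose 3.17-fold, from 617 ± 41.6 to 1959 ± 104. HS1, which changed little under confinement, rose here, and Was fell again. Of the 10 genes, 7 rose and 2 fell (4 and 4 with equal library totals), where 71.5% of all genes were called, 37.2% higher and 34.3% lower, so that most genes of any kind were called, and 2 of the 10 passed a 2-fold change beside 29.0% of all genes. Among genes that reached 100 normalized counts in at least 3 libraries, 85.0% were called. The median log2 difference was 0.46 over the 10 genes and 0.02 over all genes. The nonconfined libraries also serve as controls of the confined ones, so likeness between LPS and confinement is not independent of them and was not tested. Some LPS libraries were most alike across their labels: read counts of replicate 2 labelled cPLA2 WT and replicate 1 labelled cPLA2 KO differed by a chi-square per degree of freedom of 5.69, and those of the 2 replicates 3 by 6.88, against 11.1 to 53.8 within a label. The test treats the 6 as independent.

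By limma, the formins rose after LPS by 2.29 ± 0.05 on the log2 scale for Daam1 (adjusted p = 2.85e-20) and by 1.67 ± 0.05 for Fmnl2 (adjusted p = 5.92e-18). Fmnl1 rose by 0.29 ± 0.03 (adjusted p = 2.19e-08), but stood at -0.21 with equal library totals. Diaph1 rose by 0.18 ± 0.03 (adjusted p = 2.06e-05), but stood at -0.31 with that scaling. That scaling moved the median of all genes from 0.02 to -0.46 and the share of calls that were higher from 52.0% to 26.4%, so the direction of small changes after LPS depends on it. Relative to the median of all genes, Daam1 stood at 2.27 at the deposited scaling and 2.25 with equal totals, and Fmnl2 at 1.65 and 1.63. Values relative to the median take out such a shift by construction, so their likeness is no separate support.

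Of the promoting factors, Wasl rose by 0.81 ± 0.08 after LPS (limma, adjusted p = 3.55e-09) and Wasf2 by 0.51 ± 0.03 (adjusted p = 7.69e-13), though Wasf2 stood at 0.02 (adjusted p = 0.632) with equal library totals. Was fell by 0.65 ± 0.04 (adjusted p = 6.46e-13), with no overlap, and Wipf1 fell by 0.21 ± 0.05 (adjusted p = 0.00148), with overlap. Hcls1 rose by 0.67 ± 0.03 (adjusted p = 3.66e-14), and its 6 LPS libraries lay above all others. Per kilobase, HS1 was the most abundant RNA of the 10 in nonconfined and LPS cells, though not in confined cells, where Fmnl1 was. Scaling to equal totals put Wasl at 0.31, Hcls1 at 0.18, Was at -1.15 and Wipf1 at -0.71. Cttn, the relative of Hcls1, stood at 0.40 (95% interval 0.03 to 0.77, adjusted p = 0.0524) and was called at an adjusted p of 0.0326 without LPS (labelled cPLA2 KO) replicate 2, 0.0498 without LPS (labelled cPLA2 WT) replicate 2 and 0.0481 without nonconfined cPLA2 KO replicate 1, of 0.0393 by edgeR and of 0.0375 by DESeq2, and stood at -0.09 with equal library totals.

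Most genes of the pathway were called after LPS, as were most genes overall (71.5%, with 37.2% higher and 34.3% lower), and the directions that follow are those at the deposited scaling. Of the other promoters and complex subunits, 12 of 16 rose and 1 fell (median 0.33). Of the other formins, 6 of 7 rose (median 0.72), and of the ARP2/3 subunits 6 of 9 rose and 1 fell (median 0.37). Of the inhibitors and debranching factors, 4 of 7 rose and 3 fell (median 0.14), and of the upstream genes 13 of 18 rose and 3 fell (median 0.45), against 0.02 over all genes. Marker genes moved too: 6 of 7 DC markers rose, with sums of 528035, 464174 and 490278 normalized counts in libraries labelled cPLA2 WT and 471501, 521356 and 504811 in those labelled cPLA2 KO. Of 8 neutrophil and progenitor markers, 4 rose and 3 fell, with sums of 257027, 256493 and 249728 under the label cPLA2 WT and 243604, 262056 and 251325 under the label cPLA2 KO. Of 3 eosinophil markers 3 fell, with sums of 38928, 22201 and 30471 under the label cPLA2 WT and 22000.3, 38510.3 and 31125 under the label cPLA2 KO. Of 5 macrophage markers, 3 rose and 2 fell, with sums of 100466, 111297 and 100548 under the label cPLA2 WT and 106351, 96185 and 102807 under the label cPLA2 KO. Of 5 mast cell and basophil markers, 1 rose and 4 fell, with sums of 6772, 6533 and 6601 under the label cPLA2 WT and 6358, 6957 and 7051 under the label cPLA2 KO. Their part in the result was not tested.

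Set against LPS, confined cells showed lower Daam1, Fmnl2, Hcls1 and Wasf2 and higher Was and Diaph1, in a comparison that differs in time as well as in stimulus. In confined cPLA2 WT against the 6 LPS libraries, 2 of the 10 genes were higher and 5 lower (5 higher and 2 lower with equal library totals), where 54.3% of all genes were called, 24.5% higher and 29.8% lower, with medians of -0.17 over the 10 and -0.01 over all genes. None of the 10 passed a 2-fold change there, which 14.8% of all genes did. Among genes that reached 100 normalized counts in at least 3 libraries, 69.0% were called. Daam1 differed by -0.37 ± 0.06 on the log2 scale (limma, adjusted p = 2.20e-05) and Fmnl2 by -0.46 ± 0.06 (adjusted p = 1.20e-06). No confined library thus reached the LPS level of these 2 formins, although the difference of Daam1 was -0.09 (adjusted p = 0.241) with equal library totals. Hcls1 differed by -0.77 ± 0.04 (adjusted p = 5.46e-13). Wasf2 differed by -0.14 ± 0.04 (adjusted p = 0.00203), or by 0.15 with equal library totals, and by -0.07 (adjusted p = 0.0969) with TMM. Equal totals moved the median of all genes to 0.27 and the share of calls that were higher from 45.2% to 75.0%, with Fmnl2 at -0.17, Hcls1 at -0.49, Was at 0.42 and Diaph1 at 0.41. Cttn differed by -0.77 ± 0.22 (adjusted p = 0.00521), with a value of -0.50 and an adjusted p of 0.0751 without confined cPLA2 WT replicate 3, and an adjusted p of 0.0522 against only the LPS libraries labelled cPLA2 KO. With equal library totals Cttn stood at -0.49 (adjusted p = 0.0588) and was not called. Was differed by 0.14 ± 0.05 (adjusted p = 0.0152), with adjusted p of 0.0694 and 0.0772 without confined cPLA2 WT replicates 1 and 3, respectively. Diaph1 differed by 0.12 ± 0.04 (adjusted p = 0.0120), and against only the LPS libraries labelled cPLA2 WT the adjusted p was 0.0607 for Diaph1 and 0.0662 for Was. Wasl (-0.20, adjusted p = 0.0793), Wipf1 (-0.12, 0.141) and Fmnl1 (0.03, 0.530) did not pass. Wasl stood at 0.09 with equal library totals, where Wipf1 (0.17, adjusted p = 0.0355) and Fmnl1 (0.32, adjusted p = 4.89e-07) were called as higher in confined cells. Fmnl1 was also called with TMM scaling (0.10, adjusted p = 0.0242), and Wasl against only the LPS libraries labelled cPLA2 WT (-0.27, adjusted p = 0.0401).

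In confined cPLA2 KO against the same LPS libraries, 3 of the 10 genes were higher and 6 lower (4 and 3 with equal library totals), where 62.9% of all genes were called, 30.3% higher and 32.5% lower, with medians of -0.45 over the 10 and 0.03 over all genes. Among genes that reached 100 normalized counts in at least 3 libraries, 76.8% were called. Daam1 differed by -1.27 ± 0.06 on the log2 scale (limma, adjusted p = 5.87e-14), the 1 of the 10 past a 2-fold change beside 23.6% of all genes, and Fmnl2 differed by -0.85 ± 0.06 (adjusted p = 5.13e-11). Hcls1 (-0.80 ± 0.04, adjusted p = 1.12e-13), Wasf2 (-0.49 ± 0.04, 1.10e-10) and Wasl (-0.46 ± 0.09, 1.92e-04) were lower as well. The RNAs of 3 factors that bind or activate ARP2/3 were thus below their level after LPS in every confined cPLA2 KO library. With equal library totals, the median of all genes moved to 0.46 and the share of calls that were higher from 48.2% to 77.2%, with Daam1 at -0.83, Fmnl2 at -0.41, Hcls1 at -0.36, Was at 0.78, Diaph1 at 0.57, Wipf1 at 0.64, Wasf2 at -0.04 (adjusted p = 0.279) and Wasl at -0.02 (adjusted p = 0.860). Fmnl1 differed by -0.10 ± 0.04 (adjusted p = 0.0266), or by 0.35 with that scaling, and had adjusted p of 0.0589 without LPS (labelled cPLA2 KO) replicate 1, 0.0615 without LPS (labelled cPLA2 WT) replicate 2 and 0.146 and 0.0586 without confined cPLA2 KO replicates 2 and 3, respectively. The call of Fmnl1 also ended with TMM scaling (-0.06, adjusted p = 0.187) and against only the LPS libraries labelled cPLA2 KO (-0.08, adjusted p = 0.105). In the fit of only the conditions compared its adjusted p was 0.0640. Was (0.33 ± 0.05, adjusted p = 1.54e-06), Diaph1 (0.13 ± 0.04, 0.00708) and Wipf1 (0.20 ± 0.07, 0.0123) were higher, with an adjusted p for Wipf1 of 0.117 without confined cPLA2 KO replicate 1 and of 0.0712 against only the LPS libraries labelled cPLA2 WT. Cttn stood at -0.45 (adjusted p = 0.0826), and was called against only the LPS libraries labelled cPLA2 WT (-0.61, adjusted p = 0.0442).

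Between the LPS libraries labelled cPLA2 KO and cPLA2 WT, no difference in the 10 genes was detected. None of the 10 and 0 of 17875 genes were called by limma, edgeR or DESeq2, and 890 genes, 4.98%, had an unadjusted p under 0.05, none of the 10 among them. The log2 differences of the 10 ran from -0.33 for Cttn (95% interval -0.86 to 0.20) to 0.00 for Wasf2 (95% interval -0.09 to 0.08), each with an adjusted p of 0.9997. Wasl, at -0.15, was the only 1 of the 10 whose libraries did not overlap between the labels. Since Pla2g4a and Ddx3y do not follow these labels, the values compare 2 sets of LPS libraries, and a role of cPLA2 in the response of these genes to LPS cannot be read from them.

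Over the 18 libraries, Daam1 followed Fmnl2, Fmnl1, Wasl and Wasf2 closely and Diaph1 less, and Was ran against it. The correlation of log2 values was 0.991 between Daam1 and Fmnl2, 0.956 between Daam1 and Wasl, 0.940 between Daam1 and Wasf2 and 0.917 between Daam1 and Fmnl1, but 0.658 between Daam1 and Diaph1, against -0.977 between Daam1 and Was (n = 18 libraries each). Among the 10553 genes compared, those closest to Daam1 were Nod2 (0.995), C9orf72 (0.995) and Ptgs2 (0.995), each over 18 libraries. Closest to Fmnl2 were Met (0.997), M6pr (0.996) and Cxcl2 (0.996), and to Wasf2 Rapgef2 (0.993), Kdm4a (0.993) and Stat5a (0.990). Closest to Wasl were Furin (0.972), Arfgap3 (0.967) and Tgm2 (0.966), to Fmnl1 Rtf2 (0.974), Vegfa (0.972) and Slc39a4 (0.971) and to Wipf1 Tbkbp1 (0.879), 4933404O12Rik (0.856) and Banp (0.856). Such correlations across 6 conditions include the differences between groups.

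The sequences before the starts of the 10 genes were searched for sites of transcription factors that act in DCs. Promoter windows of 250 bases from the RefSeq promoter table (GRCm38.p6), matched to GRCm39, were present for 8 of the 10 genes, without an entry for Cttn and Diaph1, and both strands were read. Wasl had a nuclear factor kappaB site 58 bases before its start. Wipf1 had an interferon-stimulated response element core (GAAA, any 2 bases, GAAA) 103 bases before one of its 3 starts, and Hcls1 had an AP-1 site (TGANTCA) 72 bases before its start. Fmnl1 had a PU.1 site (GAGGAAGT) at 50 and a kappaB site at 244 bases. In Was, Wasf2, Fmnl2 and Daam1 no match to these motifs, to the GAS motif (TTCNNNGAA) or to the CArG box of serum response factor was found, so the 2 formins that rose most carry none in these windows. Of 32841 windows of all genes, 7.25% held a kappaB site, 7.02% GAS, 6.75% AP-1, 2.98% the response element core, 2.44% PU.1 and 1.47% a CArG box.

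Promoter sequences of 3 genes, trimmed where annotated exons begin, are those of the Wipf1 window with its response element core in capitals, since Wipf1 had the only called positive interaction at the deposited scaling (chr2:73284324-73284483, minus strand), the Fmnl2 promoter, as that of a strongly raised formin (chr2:52747630-52747756, plus strand), and the Was promoter, as that of a gene that fell in both genotypes (chrX:7956738-7956980, minus strand), all in GRCm39.

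Wipf1: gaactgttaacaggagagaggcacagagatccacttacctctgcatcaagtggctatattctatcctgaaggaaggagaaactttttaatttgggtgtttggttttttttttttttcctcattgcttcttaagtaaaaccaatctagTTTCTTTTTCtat

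Fmnl2: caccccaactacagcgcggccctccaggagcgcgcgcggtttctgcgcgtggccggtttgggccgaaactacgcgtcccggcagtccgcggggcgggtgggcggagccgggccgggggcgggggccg

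Was: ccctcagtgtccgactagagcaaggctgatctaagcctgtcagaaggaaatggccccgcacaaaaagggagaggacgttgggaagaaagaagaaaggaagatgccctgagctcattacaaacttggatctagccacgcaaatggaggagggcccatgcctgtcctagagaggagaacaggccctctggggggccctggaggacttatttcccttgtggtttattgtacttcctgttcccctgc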

How the data were processed

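RNA of 18 libraries (3 in each of 6 conditions) was read from the deposited table of normalized counts. The authors aligned reads with STAR 2.7.5a to GRCm39 (mm39), counted them per gene with featureCounts 1.5.0 and divided the counts by DESeq2 size factors in R 3.5.3, which gave the normalized counts, a scaled signal per gene, that the authors deposited in 62197 entries. The libraries were poly(A)-selected and stranded, made with 2 Illumina kits (TruSeq Stranded mRNA and Stranded mRNA Prep Ligation). Which library was made with which kit is not given in the sources used here, so the kit could differ between the groups compared. Whole reads were recovered in 100% of values by dividing out each library's smallest step, and gave the depth per library stated in the text, at which 3 libraries a group give the standard errors printed there.

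Log2(normalized count + 1) of the 17875 genes that reached 10 normalized counts in 3 or more libraries was fitted with limma 3.58.1 (R 4.3.3, 1 mean per condition, all 18 libraries, eBayes with trend), and p-values were adjusted by Benjamini-Hochberg within each of 9 comparisons. A gene was called at an adjusted p under 0.05. Tables and plots used Python 3.11.15, pandas 2.3.3, numpy 2.4.6 and matplotlib 3.10.9. The code of the fit was tested on simulated data with 3 libraries a group, in which 200 genes were changed. It recovered 18 of 50 genes changed 1.2-fold, 46 of 50 changed 1.5-fold and 50 of 50 at both 2-fold and 4-fold. There were 6 false calls among 15705 genes. Most changes of 1.2-fold were thus missed in that simulation, so a small difference that is not called is not shown to be absent. Alternatives were pseudocounts of 0.5 and 5, other filters, TMM and scaling to equal library totals, edgeR 4.0.16 and DESeq2 1.42.0 on recovered reads, a fit of only the conditions compared, the replicate number as a term, 2 other calling rules, single LPS labels, each library left out and, chosen after the data were seen, a fit without the 6 LPS libraries.

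The members and lists were chosen with earlier results of these data known. The lists were other nucleation promoters and subunits of their complexes, other formins, ARP2/3 subunits, ARP2/3 inhibitors and debranching factors, upstream GTPases, exchange factors and adaptors, and markers of dendritic cells, macrophages, neutrophils and progenitors, eosinophils, mast cells and basophils, T cells, B cells and fibroblasts. From each of the first 5 lists the genes with the largest and smallest log2 difference among those averaging at least 100 normalized counts were named, for confinement in cPLA2 WT and for the interaction, besides all members and, for members with a called interaction, the 3 genes closest to them by correlation among genes of at least 100 on average.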

Additional observations from a re-analysis of the deposited data

Results flagged for a closer look

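For 6 of the 10 genes the change with confinement differed between cPLA2 KO and cPLA2 WT cells by the test of that difference itself, the interaction in limma with Benjamini-Hochberg adjustment. Daam1 had an interaction of -0.76 on the log2 scale (adjusted p = 4.16e-06), Wasl of -0.43 (adjusted p = 0.0430) and Fmnl2 of -0.36 (adjusted p = 0.00813). Wasf2 had an interaction of -0.30 (adjusted p = 5.09e-04) and Fmnl1 of -0.17 (adjusted p = 0.0452). Wipf1, with 0.35 (adjusted p = 0.0183), was the 1 of these 6 with a positive value. Over all genes 25.8% were called in this test, and 37.9% of those that reached 100 normalized counts in at least 3 libraries. Without any single library of the 12 compared 4 or 5 of the 10 genes were called, and with equal library totals Wasl, Wasf2, Fmnl2 and Fmnl1 lost their calls.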

How the results depend on the processing

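All 17875 genes were refitted under each alternative. Scaling changed the sign of more member values than any other setting tried, besides leaving out libraries. With equal library totals, 14 of 90 member values changed sign, and the values on the other side of 0, members and named genes together, were Coro1b -0.19, Diaph2 -0.14 and Gmfb 0 for confinement in cPLA2 WT, Wipf1 -0.03 for confinement in cPLA2 KO, Arpc5l 0.18, Arpin 0.09, Coro1b 0.09, Diaph2 0.16, Fmnl1 0.02, Hcls1 0.15 and Inf2 0.19 for the interaction, Fmnl1 0.03 and Hcls1 0.13 for confined cPLA2 KO minus WT, Hcls1 -0.02 and Was -0.01 for nonconfined cPLA2 KO minus WT, Cttn -0.09, Diaph1 -0.31 and Fmnl1 -0.21 for LPS minus nonconfined, Wasf2 0.15, Wasl 0.09 and Wipf1 0.17 for confined cPLA2 WT minus LPS, Fmnl1 0.35 for confined cPLA2 KO minus LPS. With TMM, Wipf1 was at 0 for confinement in cPLA2 KO and Diaph1 at -0.02 for confined cPLA2 KO minus WT. Inf2 had an interaction of 0.01 by edgeR and by DESeq2. With a 2-fold change required besides, the members called were 1 for confined cPLA2 KO minus LPS, 0 for confined cPLA2 WT minus LPS, 1 for confinement in cPLA2 KO, 2 for confinement in cPLA2 WT, 0 for confined cPLA2 KO minus WT, 0 for the interaction, 2 for LPS minus nonconfined. With a fold change of at least 1.5 and an unadjusted p of at most 0.05, they were 3 (beside 39.0% of all genes) for confined cPLA2 KO minus LPS, 2 (27.8%) for confined cPLA2 WT minus LPS, 2 (23.6%) for confinement in cPLA2 KO, 4 (34.5%) for confinement in cPLA2 WT, 1 (19.4%) for confined cPLA2 KO minus WT, 2 (16.5%) for the interaction, 5 (46.1%) for LPS minus nonconfined. Without the 6 LPS libraries they were 8 for confinement in cPLA2 WT, 6 in cPLA2 KO, 5 for the interaction, 6 for confined and 0 for nonconfined cPLA2 KO minus WT, within 1.5 times the number with all libraries. Numbers of members called under the other alternatives also lay within that range, but not always their directions. With equal library totals, members called higher and lower were 5 and 4 for confinement in cPLA2 WT, 4 and 2 in cPLA2 KO, 5 and 1 for the interaction (1 and 5 at the deposited scaling), 4 and 3 for confined cPLA2 KO minus WT, 4 and 4 for LPS minus nonconfined, 5 and 2 for confined cPLA2 WT minus LPS (2 and 5 at the deposited scaling) and 4 and 3 for confined cPLA2 KO minus LPS. The cause of each difference was not tested. Cttn had the fewest reads of the members, at 23 to 103 per library.

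With single libraries left out, the members called numbered 8 to 9 for confined cPLA2 KO minus LPS, 5 to 7 for confined cPLA2 WT minus LPS, 5 to 7 for confinement in cPLA2 KO, 8 to 9 for confinement in cPLA2 WT, 0 for the LPS labels, 5 to 6 for confined cPLA2 KO minus WT, 0 to 1 for nonconfined cPLA2 KO minus WT, 4 to 5 for the interaction, 9 to 10 for LPS minus nonconfined. Values that crossed 0 ranged as follows: Wipf1 -0.06 to 0.06 for confinement in cPLA2 KO, Arpc1b -0.01 to 0.07, Arpc5l -0.07 to 0.03, Arpin -0.32 to 0.10, Diaph1 -0.01 to 0.10, Diaph2 -0.15 to 0.07 and Inf2 -0.08 to 0.06 for the interaction, Diaph1 -0.01 to 0.02 for confined cPLA2 KO minus WT, Diaph1 -0.09 to 0.02, Fmnl2 -0.09 to 0.03, Hcls1 -0.01 to 0.04, Was -0.01 to 0.08 and Wipf1 -0.09 to 0.03 for nonconfined cPLA2 KO minus WT, Fmnl1 -0.06 to 0.00, Fmnl2 -0.10 to 0.01, Hcls1 -0.06 to 0.01 and Wasf2 -0.02 to 0.02 for the LPS labels.

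The replicate numbers were not taken as pairs: in 0 of 9 pairs of groups did every same-numbered pair correlate above 0.1. Correlations ran from -0.142 to 0.338. Between confined cPLA2 WT and confined cPLA2 KO they were 0.338, 0.208 and 0.040 for replicates 1, 2 and 3. Between nonconfined and confined cPLA2 WT they were 0.183, 0.106 and -0.064. With 3 libraries a group, this rule cannot show that pairing is absent. With the replicate number as a term, 88 of 90 member calls were as before, Wasl in confinement of cPLA2 KO had an adjusted p of 0.0516 and the interaction of Fmnl1 one of 0.0534 (limma), and among the genes named Abi3 lost its call for the interaction (0.0586); the cause was not tested.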
